A study of Mus musculus with 2 samples.

Results

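The miR-101 family comprised 2 genes, Mir101a and Mir101b, of 2202 microRNA genes counted in the mouse heart. The genes were chosen by their names in the GENCODE M21 annotation, and the family was singled out with its counts known, because Mir101a was among the genes that differed most between the libraries. The values below are therefore a description of these libraries, and no test was applied to them. The hearts came from male B6CASTF1/J mice, hybrids between C57BL/6J, a laboratory strain, and CAST, a wild-derived one, at 10 days of age. Total RNA was made into a small RNA library for each of 2 biological samples, which the labels number as biological replicates 1 and 2. The labels name no treatment, mutation or transgene and describe whole heart tissue rather than isolated cells. They give the samples separate sample identifiers and a common donor identifier. The separate sample identifiers were taken to mean separate animals, which is an assumption, and if it does not hold, the SDs below (n = 2) are not between animals. There was 1 group and no contrast between conditions.

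MicroRNAs are cut from hairpin transcripts as a duplex of a 5p and a 3p strand, and the strand that is kept guides Argonaute proteins to messenger RNAs, mainly through its seed, bases 2 to 8. The main product of the miR-101 genes is the 3p strand. It is known for repressing Ezh2, the methyltransferase of the Polycomb complex that deposits repressive histone H3 methylation, and the transcription factor gene Fos. In the heart it has been described as a restraint on fibroblast activation and scar formation after infarction.

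The mature sequences show how closely the genes are related and where their products part. They are given as annotated by RefSeq on GRCm38.p6, 5′ to 3′, with the seed in capitals, beside miR-101c and miR-144-3p as the nearest relatives.
mmu-miR-101a-3p: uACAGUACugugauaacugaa
mmu-miR-101b-3p: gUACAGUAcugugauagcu
mmu-miR-101c: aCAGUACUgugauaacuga
mmu-miR-144-3p: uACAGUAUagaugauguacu
The annotated 3p form of Mir101b starts 1 base earlier than that of Mir101a, on sequence that is identical in both hairpins, so the annotated seeds differ (ACAGUAC and UACAGUA). Read from the start of miR-101a-3p, both genes encode the seed ACAGUAC. No other entry among the 1738 RefSeq mature sequences has the seed of miR-101a-3p, and miR-144-3p differs from it at 1 seed position, C8U, counted from the 5′ end of the mature sequence. The count tables hold 1 value per hairpin, so which strand or which 5′ end was sequenced is not resolved by them.

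The 21 bases of miR-101a-3p and the same window of the Mir101b hairpin differ at a single base, A16G, counted from the 5′ end of miR-101a-3p. The windows are shown with that base in capitals.
Mir101a: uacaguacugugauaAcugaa
Mir101b: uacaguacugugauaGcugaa
The 5p strands are less alike, with 17 identical positions over 23 alignment columns, against 20 of 21 in the 3p window. Their seeds, in capitals, also differ (CAGUUAU and CGGUUAU).
mmu-miR-101a-5p: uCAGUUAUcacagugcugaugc
mmu-miR-101b-5p: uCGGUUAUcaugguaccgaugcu
The 3p strands thus part at fewer positions than the 5p strands.

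Mir101a (ENSMUSG00000065451.1) is encoded at chr4:101346945-101347027 on the minus strand (mm10), within exon 2 of 2 of the long intergenic noncoding RNA E130102H24Rik and on the same strand. Mir101b (ENSMUSG00000065556.1) lies at chr19:29135279-29135375 on the plus strand, in intron 8 of both annotated transcripts of Rcl1 that span it. Rcl1 encodes a nucleolar protein of ribosomal RNA processing. No other counted microRNA gene lay within 50 kb of either gene, so neither belonged to a microRNA cluster by that distance. The hairpins are shown with the annotated 3p form in capitals.
Mir101a hairpin: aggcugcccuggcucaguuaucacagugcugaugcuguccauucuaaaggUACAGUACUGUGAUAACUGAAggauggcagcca
Mir101b hairpin: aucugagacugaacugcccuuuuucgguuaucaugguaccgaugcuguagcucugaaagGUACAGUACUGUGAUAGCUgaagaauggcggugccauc
Over their whole length the hairpins were 68.0% identical (66 of 97 alignment columns). The minimum free energy predicted by RNAfold was -47.0 kcal/mol for Mir101a and -39.6 kcal/mol for Mir101b. Per base this was -0.57 and -0.41 kcal/mol, against a median of -0.43 over the hairpins of the 340 detected genes, and 30 of those hairpins were more stable per base than Mir101a. In the predicted folds 20 of the 21 bases of miR-101a-3p and 18 of the 19 bases of miR-101b-3p were paired.

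**Figure D1:**
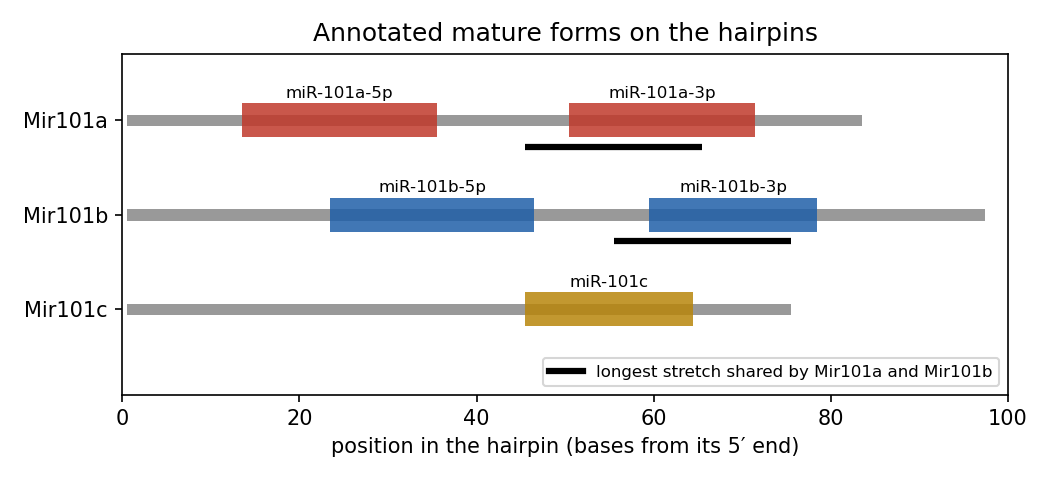
Position of the annotated mature forms (coloured boxes) on the hairpins (grey bars) of Mir101a, Mir101b and Mir101c, in bases from the 5′ end of each hairpin. The black bars mark the longest stretch shared by Mir101a and Mir101b, 20 bases that end before the last bases of either 3p form.

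The shared sequence bears on how reads could be told apart. The longest stretch common to the members was 20 bases, aaagguacaguacugugaua, and it starts in the loop and stops at the base before the substitution. Among stretches of 20 to 23 bases that lie within the annotated 3p form or up to 2 bases beyond it, none from either gene occurred in another counted hairpin. At 19 bases, the length of the annotated miR-101b-3p, 1 of 7 stretches of Mir101a and 0 of 5 of Mir101b did. At 18 bases, 2 of 8 stretches of Mir101a and 1 of 6 of Mir101b did. A complete 3p read of either gene therefore matched 1 counted hairpin, whereas a trimmed read could match more. These comparisons cover the counted hairpins and not the rest of the genome. Multimapping reads, those that fit several genome positions, entered no gene count; they were 36.8% of the reads of replicate 1 and 48.1% of those of replicate 2.

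Library depth, as counts on the gene strand, was 3748432 for replicate 1 and 6305782 for replicate 2. A gene is called detected where each library gave it 10 counts or more, which 340 genes and both members did. Levels are in CPM, counts per 1000000 counts assigned to microRNA genes. The intervals are exact Clopper-Pearson 95% intervals of a count share and cover counting error only, since amplified reads are not independent molecules. Heart identity was checked on marker microRNAs. The cardiac muscle list (7 genes, all with counts) took 0.832% and 1.25% of the counts of replicates 1 and 2. Its Mir208a (14227 and 8590 counts), Mir208b (2978 and 21714) and Mir499 (13787 and 47557) held nearly all of these. The other genes of that list were low. Mir1a-2 had 162 and 628 counts and Mir1a-1 had 13 and 19. Mir133a-1 had 10 and 27 counts and Mir133a-2 had 2 and 4. Multimapping reads are in none of these counts. The endothelial gene Mir126a had 88956 and 100563 CPM. The neural list of 6 genes had 2 counts in each library with 4 of its genes at 0. A read that fits several genes of that list would enter none of these counts, so they do not show absence. Some markers of other tissues had counts. Mir122, the main microRNA of hepatocytes, had 57.9 and 77.7 CPM, above Mir101a in replicate 1 and below it in replicate 2. The epithelial list of 6 genes took 0.0476% and 0.0546% of the counts, more than the miR-101 genes, and its Mir200c had 403 and 443 CPM.

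Mir101a had 100 counts in replicate 1 and 971 in replicate 2. This was 26.7 CPM (21.7 to 32.4) in replicate 1 and 154 CPM (144 to 164) in replicate 2, and the intervals did not overlap. The mean was 90.3 ± 90.0 CPM (SD, n = 2), a spread as large as the level itself. Among all counted genes Mir101a ranked 221 in replicate 1 and 141 in replicate 2.

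Mir101b had 328 counts in replicate 1 and 1736 in replicate 2. Its level was 87.5 CPM (78.3 to 97.5) in replicate 1 and 275 CPM (263 to 289) in replicate 2, again without overlap of the intervals. The mean was 181 ± 133 CPM (SD, n = 2), and the rank was 167 in replicate 1 and 112 in replicate 2. By reads placed at a single position, Mir101b was the more abundant member in each library. Its level in replicate 1 nevertheless lay below that of Mir101a in replicate 2, so the spread between libraries was wider than the gap between the genes.

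The members together took 0.0114% of the counts of replicate 1 (0.0104% to 0.0126%) and 0.0429% of those of replicate 2 (0.0413% to 0.0446%). The family therefore supplied 1 count in 8758 in replicate 1 and 1 in 2329 in replicate 2. As a share of all sequenced reads, unassigned ones included, the family held 48.4 reads per 1000000 in replicate 1 and 159 in replicate 2. No read was counted on the opposite strand of either gene, and the count over both strands equalled the count on the gene strand. At a mean of 90.3 and 181 CPM, the members stood near the middle of the detected genes, whose median was 80.0 CPM.

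The annotation holds a further gene of this name, Mir101c (ENSMUSG00000106183.1; chr9:3038669-3038743, minus strand, mm10), which is outside the family as defined here. It had no count in either library. A limit of 3 counts for a count of 0 equals 0.800 CPM at the depth of replicate 1 and 0.476 CPM at that of replicate 2, and the exact two-sided interval used for the other genes reaches 0.984 and 0.585 CPM. Its 19-base mature form is contained whole in the hairpin of Mir101a, so a read of exactly that sequence fits both genes. As a multimapping read it would enter neither count. The limits above therefore hold for reads placed at a single position and do not bound the level of the mature form. The mature window of Mir101c departs from miR-101a-3p at the outermost bases only (U1C and A21U, counted as above). Its hairpin, shown with the mature form in capitals, had a predicted energy of -16.1 kcal/mol, and 338 of the 340 detected hairpins were more stable per base.
Mir101c hairpin: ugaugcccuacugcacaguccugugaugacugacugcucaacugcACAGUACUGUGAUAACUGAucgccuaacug
Only 11 of the 19 mature bases of Mir101c were paired in its predicted fold.

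**Figure D2:**
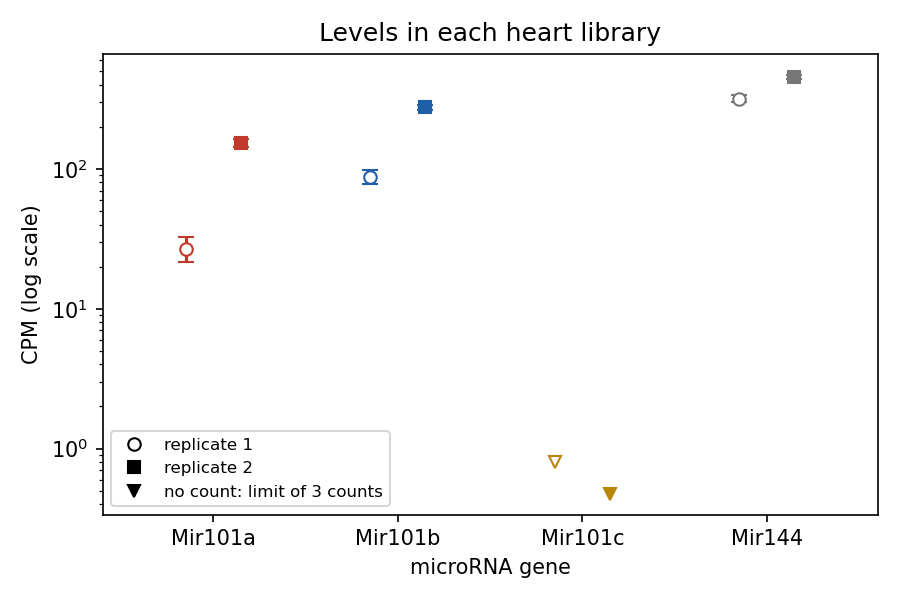
Level of each gene in CPM on a log axis, with open circles for replicate 1, filled squares for replicate 2 and bars for the exact 95% counting interval. Triangles mark the limit of 3 counts for Mir101c, which had no count of reads placed at a single position. Both members are higher in replicate 2.

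The difference between the libraries was computed as a log2 ratio of replicate 2 over replicate 1 after TMM scaling, with a prior of 0.5 counts. For Mir101a it was 2.67 (counting interval 2.37 to 2.98), which is 6.35-fold. For Mir101b it was 1.79 (1.63 to 1.97), which is 3.47-fold. Both genes had the higher value in replicate 2, and the interval of Mir101a lay above that of Mir101b. The summed counts of the family gave 2.05 (1.91 to 2.20), or 4.15-fold.

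Against the other genes of these libraries, both members lay in the upper tail. Mir101a was rank 3 and Mir101b rank 9 of 340 by log2 ratio toward replicate 2. At least 2-fold higher in replicate 2 were 35 of 340 detected genes (10.3%), the members among them, and at least 2-fold lower were 33 (9.71%), with neither member. Just inside the 2-fold limit was Mir190a, with a log2 ratio of 1.05, and just outside it Mir130b, with 0.9999. The median log2 ratio of all detected genes was -0.05 and its SD 0.91. Because the family was picked with these ratios known, its place in this distribution was fixed by the choice. With 1 library on each side there is no estimate of the spread within a side, and in bulk tissue fewer cells of a type and less RNA per cell cannot be told apart.

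**Figure D3:**
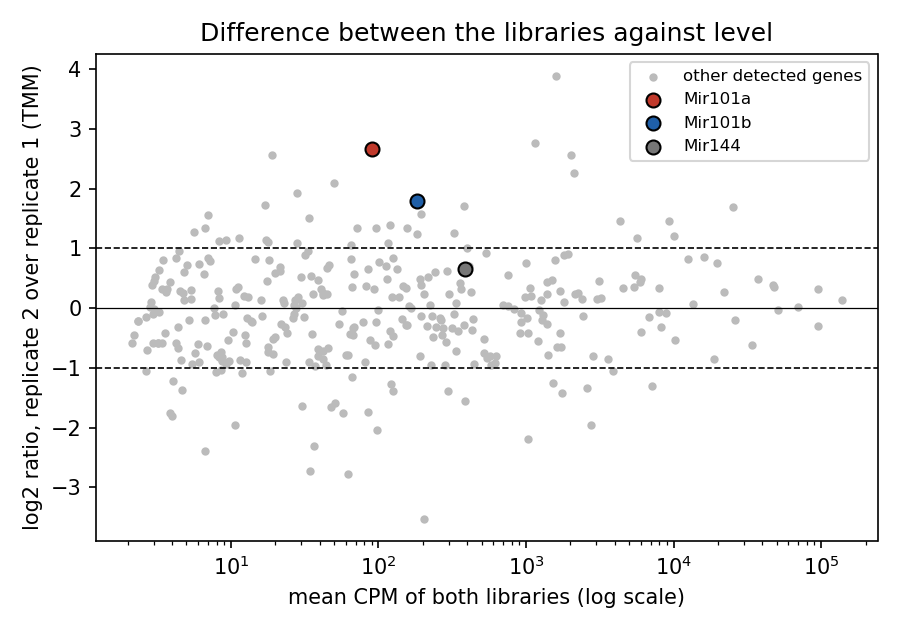
Log2 ratio of replicate 2 over replicate 1 after TMM scaling against mean CPM (log axis) for the 340 detected genes, with dashed lines at 2-fold. Mir101a (2.67) and Mir101b (1.79) lie above the upper line, and Mir144 (0.66) lies below it.

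The balance of the members also differed between the libraries. Mir101a made up 23.4% of the pair's counts in replicate 1 (19.4% to 27.7%, 428 counts) and 35.9% in replicate 2 (34.1% to 37.7%, 2707 counts). Mir101b thus exceeded Mir101a 3.28-fold in replicate 1 and 1.79-fold in replicate 2. The log2 ratio of Mir101a to Mir101b was -1.71 (-2.05 to -1.39) and -0.84 (-0.95 to -0.72), with a mean of -1.28 ± 0.62 (SD, n = 2). This ratio is taken within a library, so it does not depend on the scaling between libraries. It holds for reads placed at a single position, and how many trimmed reads each gene lost as multimapping is not known. The direction, with Mir101b above Mir101a, was common to both libraries, while its size was not.

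Mir144, an erythroid microRNA whose 3p seed is 1 base from that of miR-101a-3p, was the nearest relative with counts. It had 316 CPM in replicate 1 (299 to 335) and 453 CPM in replicate 2 (436 to 470), above both members in each library. Its log2 ratio was 0.66 (0.56 to 0.76), below those of Mir101a and Mir101b. The sum of the members was 114 CPM in replicate 1, less than Mir144 alone, and 429 CPM in replicate 2, close to it. The erythroid list of Mir451a, Mir144 and Mir486 held 1.02% of all counts of replicate 1 and 0.885% of those of replicate 2. Its genes had log2 ratios from -0.96 to 0.66, with -0.07 for Mir451a, the most abundant of them. The part of erythroid content in the members' difference was not tested.

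The detected genes with ratios most like those of the members were picked by distance in log2 ratio, leaving out genes whose mean was under 10 CPM. Likeness here rests on 2 libraries, that is, on 1 ratio per gene. Nearest to Mir101a were Mir148a (2.77), Mir301b (2.56) and Mir195a (2.56). Nearest to Mir101b were Mir380 (1.72), Mir152 (1.70) and Mir26b (1.69). Mir148a and Mir152 encode microRNAs of a common seed family and Mir195a belongs to the miR-15/16 family, which is tied to cell cycle exit in the postnatal heart. The relatives of Mir148a, Mir152 and Mir195a named here had smaller ratios. These were 0.76 for Mir148b, 1.26 for Mir16-2, 0.90 for Mir16-1, 0.21 for Mir15a, 0.03 for Mir497 and -0.78 for Mir15b. Relatives of Mir301b went both ways, with 3.88 for Mir301, 1.45 for Mir130a and 0.9999 for Mir130b. So did those of Mir26b, with 0.23 for Mir26a-2 and 3.82 for Mir26a-1, which was not detected (6 and 137 counts). The levels of the genes nearest in ratio spanned a wide range, from a mean of 17.1 CPM for Mir380 to 25286 CPM for Mir26b.

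The genes nearest to the members in mean level had smaller ratios than the member they neighboured. Since the family was picked with the members' ratios known, that outcome was largely set by the choice. Above Mir101a came Mir378d (93.7 CPM, log2 ratio 0.32) and Mir184 (94.9 CPM, -0.62), and below it Mir598 (87.7 CPM, -0.53) and Mir186 (85.4 CPM, 0.66). None of these reached 2-fold in either direction. Next above Mir101b came Mir142 (183 CPM), a leukocyte microRNA with a log2 ratio of 1.24, and then Mir1306 (191 CPM, 0.48). Below it came Mir224 (166 CPM) and Mir708 (160 CPM), with ratios of 0.0019 and 0.04. Of these 8 neighbours in level Mir142 passed 2-fold, beside the 10.3% of all detected genes that were at least 2-fold higher in replicate 2.

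Other microRNAs have been reported to act on the same target or process. Of 7 genes whose products are reported to repress Ezh2, 6 were detected, 1 was at least 2-fold higher in replicate 2, 1 was at least 2-fold lower and 4 lay between, where 10.3% and 9.71% of all detected genes were higher and lower by that measure. Their median log2 ratio was 0.19, beside -0.05 for all detected genes. Multimapping reads are left out of the counts of this list, so its order and its share hold for reads placed at a single position. Mir26b, in this list the most abundant by counts, was at 12906 CPM in replicate 1 and at 37666 CPM in replicate 2 (log2 ratio 1.69). Next came Mir98 of the let-7 family, with 2380 and 2385 CPM and a log2 ratio of 0.15. Mir138-1 was the gene of that list that was at least 2-fold lower, at 77.9 and 23.3 CPM. Mir138-2 was also lower, with a log2 ratio of -0.81, but did not reach 2-fold. Mir26a-1, with 6 and 137 counts, missed the filter for detected genes, and Mir26a-2 had 131 and 235 counts. A read that fits both Mir26a genes would enter neither count. The shares of the list were 1.68% and 4.18% of all counts, far above the 0.0114% and 0.0429% of the miR-101 genes. Mir26b gave 48377 of the 62914 counts of the list in replicate 1 and 237516 of 263821 in replicate 2.

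Of 12 genes reported to restrain cardiac fibrosis (the miR-29, miR-30 and miR-133a genes), 11 were detected, 1 was at least 2-fold higher in replicate 2, none was at least 2-fold lower and 10 lay between. With 10.3% of all detected genes higher and 9.71% lower by that measure, the counts of this list do not stand out. Their median log2 ratio was 0.32, beside -0.05 for all detected genes. The gene past 2-fold was Mir30e (6516 and 13611 CPM, log2 ratio 1.21). The 2 most abundant were Mir30d, at 20912 and 22841 CPM with a log2 ratio of 0.27, and Mir30a, at 9597 and 15380 CPM with a log2 ratio of 0.82. Among the collagen-repressing miR-29 genes, Mir29a had 298 and 234 CPM and a log2 ratio of -0.20, while Mir29b-1 had 0.73, Mir29b-2 had 0.45 and Mir29c had 0.08. Some of these ratios rest on few counts, 18 and 46 for Mir29b-1 and 10 and 21 for Mir29b-2. Mir133a-1 had 10 and 27 counts, and Mir133a-2, with 2 and 4, was not detected. Multimapping reads are in none of these counts.

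Base composition moved with the difference between the libraries. The mature strands of Mir101a averaged 39.4% G and C and those of Mir101b 44.97%, against a median of 49.9% over the 307 detected genes with a RefSeq mature sequence. The 3p strand alone held 33.3% in Mir101a and 42.1% in Mir101b. Across those 307 genes, the log2 ratio was lower at higher mature GC content (Spearman rho -0.38, Pearson r -0.37). With the GC content of the hairpin, over 340 genes, rho was -0.26 and r was -0.26. These correlations run across genes of the same pair of libraries, which are not independent replicates, and carry no p-value.

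When these genes were ranked by mature GC content and split into 3 groups, 23 of the 102 genes lowest in GC were at least 2-fold higher in replicate 2 (22.5%), against 7 of 102 in the middle (6.86%) and 2 of 103 in the group highest in GC (1.94%). The median log2 ratios were 0.32, -0.06 and -0.43. Both members fell in the lowest group by mature sequence and in the middle group by hairpin, where 13 of 113 genes (11.5%) passed 2-fold. Mir144 had a lower mature GC content than either member (30.2%) and a smaller ratio. The split was chosen after these values were seen, and the part of base composition in the members' difference was not tested.

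**Figure D4:**
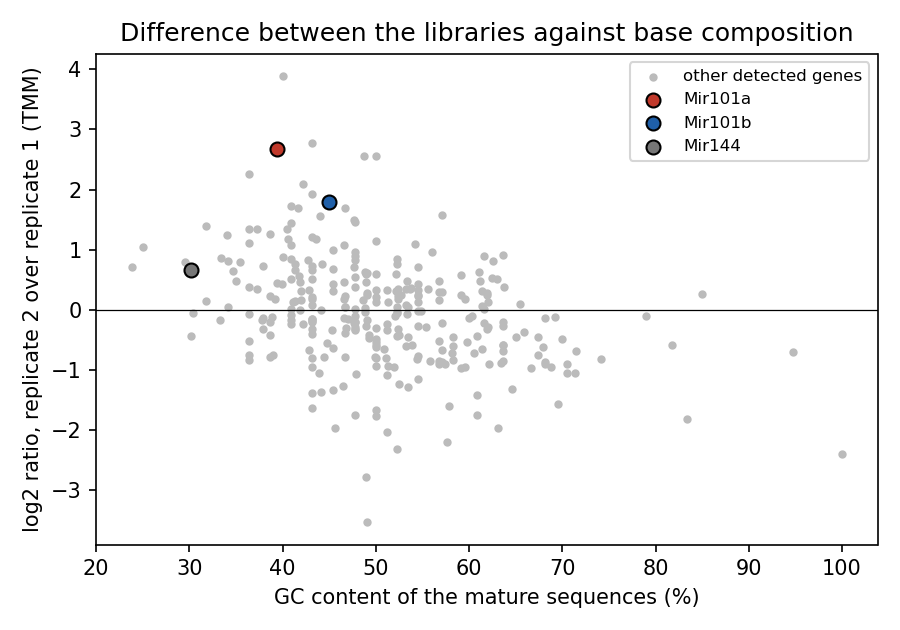
Log2 ratio of replicate 2 over replicate 1 after TMM scaling against the mean GC content of the annotated mature strands, in percent, for the 307 detected genes with a RefSeq mature sequence. The points fall from left to right (Spearman rho -0.38), and Mir101a (39.4% GC, ratio 2.67) and Mir101b (44.97% GC, ratio 1.79) lie on the left, above the zero line.

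Other measures also differed between the libraries. Multimapping reads were more frequent in replicate 2 (48.1% against 36.8%), while unmapped reads were less frequent (11.5% against 15.95%). The cardiac muscle list had a median log2 ratio of 0.99 over its 6 detected genes. Of these, 3 were at least 2-fold higher and 1 at least 2-fold lower in replicate 2, against 10.3% and 9.71% of all detected genes. The lower gene was Mir208a (-1.34), and the higher ones were Mir208b (2.26), Mir1a-2 (1.34) and Mir499 (1.18). Also among the detected genes of that list were Mir133a-1, with 10 and 27 counts, and Mir1a-1, with 13 and 19. The leukocyte list had a median of 1.08 over 4 detected genes, of which Mir142 (1.24) and Mir223 (2.10) were past 2-fold. Mir155, the most abundant of that list with 1430 and 1191 CPM, had a log2 ratio of -0.12, and Mir150 had 0.92. The leukocyte list took 0.196% and 0.219% of the counts. The endothelial gene Mir126a had 0.32, and the epithelial list had a median of 0.14 over 6 genes. The part of these measures in the members' difference was not tested.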

How the data were processed

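For each library the authors deposited a table of raw counts per microRNA gene, on mm10 with GENCODE M21, per the text files deposited beside them. The aligner and the counter were not given in the sources used here. Of 3 count columns, read from their values as both strands, gene strand and opposite strand, the gene strand was used. The 4 entries that name no gene stayed out of library totals.

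Log2 ratios used TMM (edgeR 4.0.16), with total counts and DESeq2 1.42.0 size factors as alternatives. With 1 library on each side of that comparison, called means past 2-fold, and no p-value was computed. The ratio procedure was tested on simulated counts with known changes and counting error only. That test bears on the arithmetic and not on the spread between these libraries. Hairpins came from GENCODE M21 transcripts, mature sequences from RefSeq (GRCm38.p6, 307 of 340 detected genes matched by symbol), and folds from RNAfold 2.7.2. Named genes were the Mir101 genes, Mir144, microRNA genes within 50 kb, the 3 nearest in ratio, the 2 next above and below in level, and 2 functional lists with their 2 most abundant genes. Members, lists and rules were chosen with earlier results of these data known. Other genes named, from the lists or as relatives of the genes nearest in ratio, were picked after their values were seen.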

Additional observations from a re-analysis of the deposited data

How the results depend on the processing

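No scaling, prior or strand column changed the direction of the members' ratios. The size of these ratios fixed that outcome, so it is no check of stability. Such settings move a ratio by little, and the members' counts over both strands equalled those on the gene strand. With total counts, the log2 ratio of replicate 2 over replicate 1 was 2.52 for Mir101a and 1.65 for Mir101b, and with DESeq2 size factors it was 2.74 and 1.87, so both genes remained past 2-fold. TMM moved all ratios by 0.14 against total counts. Levels depended most on the denominator and the library: per 1000000 of all reads the means were 34.2 for Mir101a and 69.5 for Mir101b, and leaving out a library gave 26.7 to 154 CPM and 87.5 to 275 CPM, which are the values of the single libraries and no check of stability. With both strands counted, means were 125 and 250 CPM, since fewer counts were assigned in all. The number of genes at least 2-fold higher in replicate 2 was 35, but 77 of 574 with a minimum of 1 count and 21 of 216 with a minimum of 100, where fewer genes were compared. It was 28 with total counts and 38 with DESeq2 size factors. The rank correlation of the ratio with GC content was -0.26 for hairpins, -0.38 for mature sequences and -0.21 for hairpins with a minimum of 100 counts. Ratios between libraries and the GC correlation need both libraries, so neither could be left out there. At 100 counts of Mir101a in replicate 1, counting error alone leaves the interval of its ratio 0.61 wide on the log2 scale.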
